A study of Mus musculus with 24 samples.

Results

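The 28 genes described here encode the machinery of synaptic vesicle release, postsynaptic proteins, neurofilaments and other products typical of neurons, and they were read out in astrocytes sorted from the mouse brain. The members were named one by one and looked up in the deposited gene table, which held all 28 of them among its 24394 genes. Bulk RNA-seq libraries came from astrocytes collected by fluorescence-activated sorting from 4 brain regions (olfactory bulb, hippocampus, cortex, thalamus) of mice with a conditional Nfix knockout (labelled KO) and of control mice (labelled WT). Nfix encodes a transcription factor of the nuclear factor I family. Each region had 3 KO and 3 WT libraries, 24 in 8 groups, and the question of the design was how loss of the factor changes astrocytes in each region. The Cre driver, the deleted exons, the marker used for sorting, age and sex are not stated in the labels used here, nor is it stated whether libraries of 1 group came from separate animals or whether 1 animal gave several regions. The p-values below therefore reflect how far single libraries scattered, and part of that scatter may be technical. KO and WT mean the libraries so labelled.

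Neurons release transmitter when SNARE proteins on the vesicle and on the plasma membrane zip together, a step held ready by complexins and triggered by a calcium-binding synaptotagmin. Synaptophysin, synapsins, SV2 glycoproteins and Rab3 sit in or on the vesicle, and vesicular glutamate transporters fill it. Astrocytes are not built for this kind of fast release, so RNA of these genes in a sorted astrocyte library is commonly read as a measure of neuronal material in the preparation, although low transcription in glia is known for some of them. A bulk library cannot say which cell an RNA came from, and fewer cells of a type cannot be told apart from less RNA per cell.

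Promoter sequences are shown for Cplx1 and for the vesicular glutamate transporters, whose levels are described by region further on. RefSeq promoter windows (build GRCm38.p6, 250 bases before an annotated start) were found for 18 of the 28 members, with 27 windows in all. The first is the window of Cplx1, the 1 member called by limma in these data, at chr5:108550028-108550277 on the minus strand, with 64.8% G and C and 15 CpG sites. It lies upstream of the gene, and 197 of its bases fall in exons that the annotation gives to other entries. The next are a window of Slc17a7 at chr7:45163671-45163920 (plus strand, 61.2% G and C, 9 CpG sites) and the first of 2 windows of Slc17a6 at chr7:51621580-51621829 (plus strand, 53.2% G and C, 7 CpG sites).
Cplx1: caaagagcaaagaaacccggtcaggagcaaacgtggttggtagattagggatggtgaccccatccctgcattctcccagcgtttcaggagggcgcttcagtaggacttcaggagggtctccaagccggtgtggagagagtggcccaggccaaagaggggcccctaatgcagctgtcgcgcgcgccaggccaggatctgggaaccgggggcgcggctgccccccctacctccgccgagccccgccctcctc
Slc17a7: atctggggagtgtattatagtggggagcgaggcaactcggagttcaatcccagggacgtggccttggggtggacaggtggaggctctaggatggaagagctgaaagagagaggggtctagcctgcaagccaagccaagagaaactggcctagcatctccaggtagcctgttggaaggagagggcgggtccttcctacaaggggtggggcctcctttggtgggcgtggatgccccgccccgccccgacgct
Slc17a6: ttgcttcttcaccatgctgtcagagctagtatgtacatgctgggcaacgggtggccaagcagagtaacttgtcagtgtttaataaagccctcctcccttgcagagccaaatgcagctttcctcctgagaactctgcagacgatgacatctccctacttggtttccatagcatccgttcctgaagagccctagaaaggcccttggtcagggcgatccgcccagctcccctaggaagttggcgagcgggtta

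Because Nfix is the targeted gene, the windows were searched on both strands for letters typical of nuclear factor I binding. The full palindrome (TTGGC and GCCAA with 5 bases between) was in 0 of 27 member windows and in 0.0365% of all 32851 windows of the table. A short single site, TTGGCA, was in 5 of 27 windows (Dlg4, Rab3a, Rbfox3, Syn2 and Syp) and in 12.3% of all windows. Many neuronal genes also carry the RE1 element that the repressor REST binds outside neurons. Its left arm, TTCAGCACC, was in 1 of 27 windows, that of Syn1, and in 0.301% of all windows, and its right arm, GGACAGCGC, was in 0 of 27 and in 0.304%. The 30 bases around the match in Syn1 lie at chrX:20921124-20921153 on the minus strand, with the matched letters in capitals.
Syn1: ggaTTCAGCACCgcggtcagagccttcgcc
The member windows had a median of 56.4% G and C and 9 CpG sites, against 52.4% and 6 over all windows. A match of letters describes the window only.

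Libraries held 2517487 to 25616591 reads assigned to genes and 2220 to 11984 genes with reads. The 3 reads taken as the counting floor were worth 0.117 to 1.19 CPM (the usual depth-scaled read count, relative to all gene-assigned reads of the library), and such floors cover counting error only. Markers of astrocytes (Aldh1l1, Aqp4, Gfap, Slc1a2, Slc1a3, Gja1, Glul, Sox9 and S100b) summed to 28469 to 91861 CPM in 22 libraries. The other libraries, cortex WT 3 and thalamus KO 3, stood apart. They had 19086 and 10234 CPM of these markers, 3871 and 2220 genes with reads, and more oligodendrocyte marker RNA (51082 and 76162 CPM, against 1535 to 29140 in the rest) and microglia marker RNA (2621 and 3365 CPM, against 17.9 to 1247). Hippocampus WT 2 and 3 were unusually alike. No gene at 50 or more normalized reads in one of them was at 0 in the other, against 850 to 6610 such genes in the other 275 pairs of libraries, and exactly 1 of the 28 members had reads in one of them and not in the other, against 3 to 15 elsewhere. Nfix itself went against the labels. It stood at 292 to 599 CPM in KO and 224 to 253 CPM in WT olfactory bulb, at 529 to 772 in KO and 373 to 486 in WT hippocampus, and at 447 to 566 in KO and 242 to 373 in WT cortex. In the thalamus, KO libraries had 603, 999 and 121 CPM and WT libraries 274, 297 and 282 CPM. A value per gene does not separate deleted from remaining exons, so it does not check which libraries carried the deletion, and each direction below rests on the labels alone.

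The neuronal genes were present at low level in every library. Summed over the 28 members they came to 319 to 1162 CPM in 22 libraries, with a median of 625, or 0.0319 to 0.116% of gene-assigned reads. The sum was 2808 CPM in cortex WT 3 and 1768 CPM in thalamus KO 3, the same libraries that stood apart above, and the part of their other features in this result was not tested. Set against astrocyte markers, there were 3.48 to 30.5 member reads per 1000 astrocyte marker reads in the 22 libraries, and 147 and 173 in the other ones. In cortex WT 3, Syp alone gave 1359 CPM and Camk2a 700 CPM. In thalamus KO 3, 7 members had any reads, led by Vamp2 at 779, Syp at 373 and Cplx1 at 319 CPM.

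**Figure D1:**
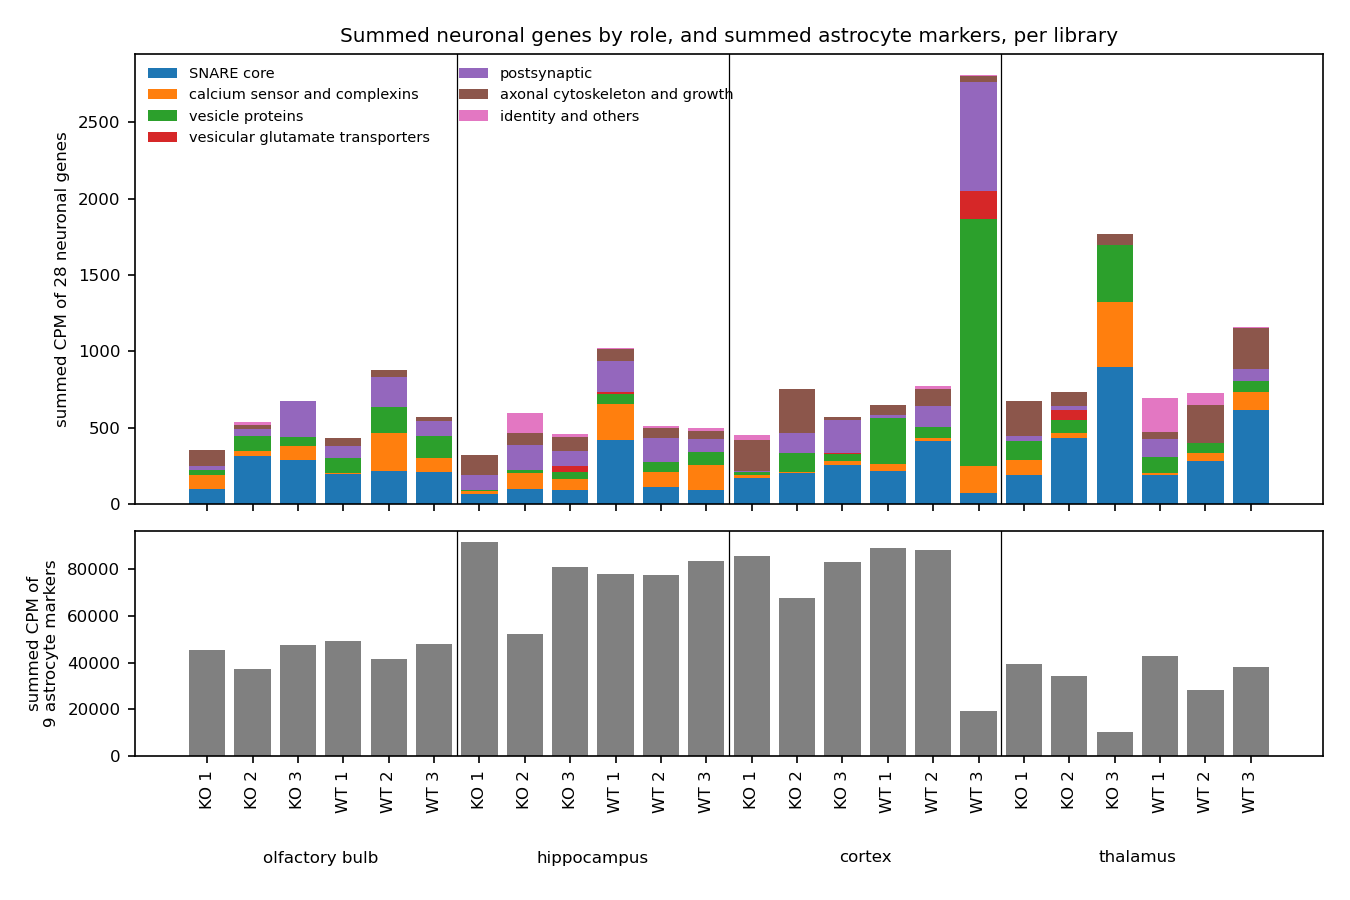
Summed CPM per library, with the 28 neuronal genes stacked by role in the upper bars and 9 astrocyte markers in the lower bars, for 3 KO and 3 WT libraries of each region. The neuronal sum reaches 2808 CPM in cortex WT 3 and 1768 CPM in thalamus KO 3, where the astrocyte markers are lowest, and stays between 319 and 1162 CPM elsewhere.

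Detection ranged from every library to almost none. Vamp2 and Mapt had reads in 24 of 24 libraries, and Snap25, Cplx2 and Dlg4 in 23. At the other end, Rbfox3 was at 0 in 22 libraries, Stx1a, Sncb and Nefh in 21, Nefm in 20, and Uchl1 and Slc17a7 in 18. Of the 672 member values, 284 were at 0 and 51 reached 100 CPM. Libraries of 1 group often disagreed on whether a member was there at all. Of 184 combinations of group and tested member, 44.6% had reads in all 3 libraries, 23.9% in 2, 19.6% in 1 and 12.0% in none. The same shares over all 12477 genes tested were 46.9%, 26.9%, 16.6% and 9.59%, so uneven detection was common among genes in general. For 10 members 1 library gave more CPM than the other 23 together. Among the 23 tested members it was 6 (Cplx1, Syp, Slc17a7, Slc17a6, Nefl and Nefh), against 17.5% of all tested genes.

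**Figure D2:**
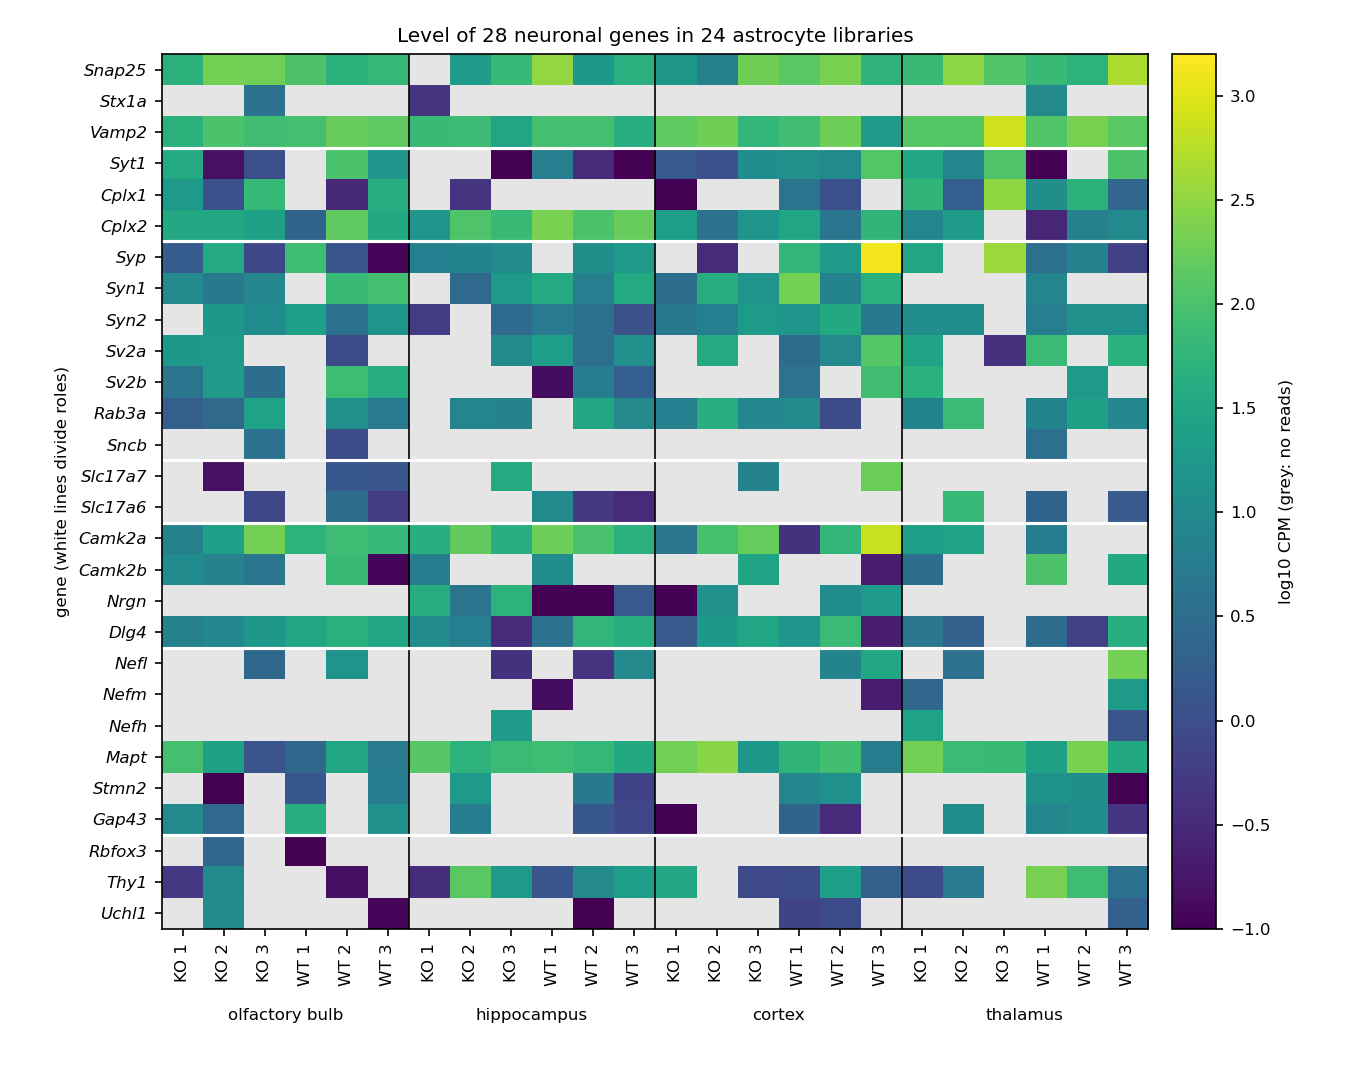
Level of each of the 28 neuronal genes (rows, grouped by role) in each of 24 libraries (columns) as log10 CPM, with grey where no read was found and the colour scale cut at 0.1 CPM. Vamp2 and Mapt are filled in all 24 columns, whereas Rbfox3 is filled in 2.

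Of the SNARE core, Vamp2 and Snap25 were found nearly everywhere and Stx1a hardly at all. Gene positions here and below are those of GENCODE M21 on GRCm38. Vamp2 (chr11:69088490-69092384, plus strand), the SNARE of the vesicle membrane, had the highest mean of the 28 both in CPM (135) and per exon length (35.4 RPKM, CPM per kilobase of exon). It stood at 49.8, 103 and 83.0 CPM in KO and 92.4, 168 and 145 CPM in WT olfactory bulb. In the hippocampus it had 68.1, 74.9 and 29.8 CPM in KO and 90.4, 92.2 and 42.6 CPM in WT. Neither region separated the genotypes. In the cortex Vamp2 stood at 151, 196 and 59.8 CPM in KO and 83.1, 186 and 20.2 CPM in WT, and in the thalamus at 123, 124 and 779 CPM in KO and 114, 229 and 133 CPM in WT. Groups overlapped in both, and the one value far above the others was that of thalamus KO 3.

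Snap25 (chr2:136713453-136782428, plus strand), a SNARE of the plasma membrane, averaged 121 CPM and 17.8 RPKM over 24 libraries. It had 50.1, 209 and 204 CPM in KO and 106, 50.2 and 62.5 CPM in WT olfactory bulb, and 0, 21.3 and 65.0 CPM in KO and 332, 17.5 and 46.7 CPM in WT hippocampus. In the cortex it had 17.0, 6.70 and 194 CPM in KO and 136, 228 and 53.1 CPM in WT, and in the thalamus 69.3, 309 and 116 CPM in KO and 68.9, 51.6 and 484 CPM in WT. KO and WT overlapped in every region, and high and low libraries occurred in both. Stx1a, the syntaxin that completes the complex, had reads in 3 libraries and at most 9.36 CPM (thalamus WT 1), and was too low to test.

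Of the calcium sensor and complexins, Syt1, the calcium sensor of fast release, had reads in 20 libraries at a median of 3.84 CPM. Its highest values were 120 CPM in cortex WT 3 and 111 CPM in thalamus KO 3. Cplx2 (chr13:54371349-54383917, plus strand) had reads in 23 libraries at a median of 24.1 CPM, and Cplx1 (chr5:108518554-108550024, minus strand) in 15 at a median of 0.755 CPM. The complexins clamp and then help the fusion of primed vesicles, and their levels by region are described further on.

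Among vesicle proteins, Syp (chrX:7638471-7653256, plus strand), synaptophysin, spanned the widest range of all members, from 0 CPM in 4 libraries to 1359 CPM in cortex WT 3. It had 1.68, 36.9 and 0.806 CPM in KO and 77.6, 1.31 and 0.112 CPM in WT olfactory bulb, and 6.60, 7.86 and 10.5 CPM in KO and 0, 12.2 and 18.1 CPM in WT hippocampus. In the thalamus it had 29.7, 0 and 373 CPM in KO and 3.52, 6.98 and 0.679 CPM in WT. These groups overlapped, and the cortex values are given with its test. Its exons overlap 875 bases of Gm14703 on the opposite strand, and the sources used here do not say whether strand was used in counting. Syn1, which tethers vesicles to each other, had reads in 17 libraries and up to 208 CPM (cortex WT 1). Its relative Syn2 had reads in 21 but no more than 35.0 CPM. Syn2 shares 90 exonic bases with Timp4 on the opposite strand, and Timp4 stood at 0 to 607 CPM, so some reads listed for Syn2 may belong to Timp4. Of the SV2 glycoproteins, Sv2a had reads in 15 libraries (up to 125 CPM) and Sv2b in 12 (up to 81.4 CPM), both highest in cortex WT 3. Rab3a, the vesicle GTPase, had reads in 19 libraries at a median of 7.90 CPM. Sncb, beta-synuclein, had reads in 3 libraries and never more than 3.63 CPM.

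Among postsynaptic genes, Camk2a, the alpha subunit of the calcium/calmodulin kinase of excitatory synapses, averaged 87.0 CPM. It had 7.09, 23.9 and 213 CPM in KO and 51.4, 78.7 and 63.4 CPM in WT olfactory bulb, and 44.3, 153 and 44.3 CPM in KO and 189, 97.2 and 46.1 CPM in WT hippocampus. In the cortex it had 4.66, 96.5 and 161 CPM in KO and 0.414, 57.7 and 700 CPM in WT. KO and WT overlapped in all of these regions. Camk2b, the beta subunit, had reads in 12 libraries and lay below Camk2a in CPM in 12 of 12 cortex and hippocampus libraries. Dlg4, the scaffold of the postsynaptic density, had reads in 23 libraries at a median of 9.84 CPM. Nrgn, neurogranin, a calmodulin-binding protein of forebrain principal neurons, had reads in 10 libraries, all of them hippocampus or cortex.

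Of the cytoskeletal and growth genes, Mapt (chr11:104231390-104332090, plus strand), which encodes tau, averaged 78.0 CPM and was the leading member in 6 libraries. It stood at 92.9, 25.2 and 1.29 CPM in KO and 2.64, 30.1 and 5.61 CPM in WT olfactory bulb, and at 126, 51.6 and 74.1 CPM in KO and 79.7, 62.2 and 35.9 CPM in WT hippocampus. In the cortex it had 204, 289 and 17.6 CPM in KO and 56.4, 84.7 and 6.04 CPM in WT, and in the thalamus 200, 73.5 and 69.5 CPM in KO and 24.7, 224 and 35.0 CPM in WT. The KO values reached higher in 3 regions, but the genotypes overlapped in each. The neurofilament subunits were patchy. Nefl reached 213 CPM in thalamus WT 3 and had reads in 8 further libraries, Nefm reached 19.4 CPM in the same library, and Nefh reached 26.6 CPM in thalamus KO 1. Nefl and Nefm share 1108 exonic bases on opposite strands, so reads in that stretch cannot be assigned without strand. Gap43, a protein of growth cones, had reads in 14 libraries and at most 43.2 CPM. Of the identity genes, Rbfox3, which encodes the nuclear neuronal antigen NeuN, had 34 reads in all libraries together. Uchl1, a ubiquitin hydrolase abundant in neurons, had reads in 6 libraries, and Thy1, a surface glycoprotein, in 19, with 219 CPM in thalamus WT 1.

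**Figure D3:**
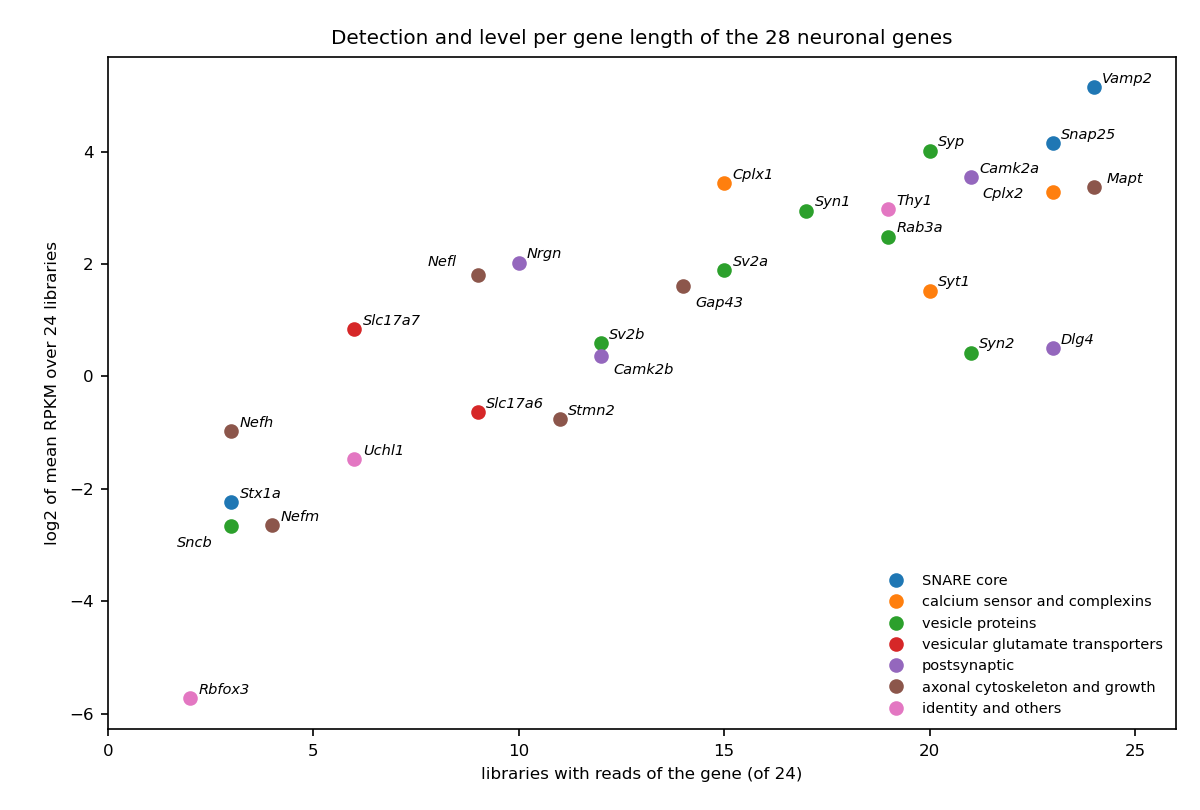
Number of libraries with reads (of 24) against the log2 of the mean RPKM for the 28 neuronal genes, coloured by role. Vamp2 lies top right with reads in 24 libraries, and Rbfox3 bottom left with reads in 2.

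Against this background of patchy detection, KO and WT libraries were compared region by region. Tests were limma-trend on log2(value + 10), where the value is the read count divided by the authors' size factor, with Benjamini-Hochberg adjustment over all genes tested in the comparison. A gene was tested if 3 or more of the libraries compared reached a value of 10. Differences on this scale understate the change of low genes. No member passed at an adjusted p under 0.05 in any region, and of all other genes 1 did, in the hippocampus.

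In the olfactory bulb 15 members could be tested and 0 passed in limma, against 0.0% of all 9385 genes tested. At an unadjusted p under 0.05 there were 0 members, where 4.01% of all genes did, and edgeR (0.0% of genes called) and DESeq2 (0.708%) on recovered reads called 0 members. The differences were split, with 6 members higher and 9 lower in KO and a median of -0.75 (log2), beside -0.04 for all genes. The member with the smallest p was Snap25, whose values are given above, at 0.93 (SE 0.81, limma, adjusted p = 1.00). Dlg4 stood at 6.65, 9.20 and 17.0 CPM in KO and 29.97, 46.2 and 32.1 CPM in WT. All 3 KO libraries lay below all 3 WT libraries, and Dlg4 was the 1 of 15 members to do so, against 4.69% of genes with KO below WT without overlap. Its log2 difference was -1.66 (SE 1.52, limma, adjusted p = 1.00). None of the 15 lay above without overlap, against 4.37% of genes. Cplx1 had 18.3, 1.16 and 65.7 CPM in KO and 0, 0.292 and 40.7 CPM in WT, with overlapping groups and a difference of 1.97 (SE 1.87, limma, adjusted p = 1.00).

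In the hippocampus 13 members could be tested and 0 passed in limma, against 0.0109% of 9213 genes. At an unadjusted p under 0.05 there were 2 members, where 6.27% of all genes passed. Most lay lower in KO, 9 against 4 higher, with a median of -0.73 beside -0.16 for all genes, of which 44.8% lay higher. Markers of other cells lay lower in the same libraries, with 10 of 10 oligodendrocyte markers (median -1.42, summed 1535 to 7627 CPM in KO and 3175 to 5421 CPM in WT), 6 of 7 tested microglia markers (-1.32, 17.9 to 1247 CPM in KO and 314 to 818 CPM in WT) and 3 of 4 tested endothelial markers (-2.59, 1.76 to 555 CPM in KO and 52.0 to 542 CPM in WT). Their part in the result was not tested. Nrgn (chr9:37544492-37552904, minus strand) stood at 40.6, 4.12 and 51.1 CPM in KO and 0.0696, 0.0390 and 1.46 CPM in WT. Each KO library lay above each WT library, 1 of 13 members to do so against 5.61% of genes. Its difference was 4.01 (SE 1.71, limma, adjusted p = 0.699). No member was called by edgeR, and DESeq2 on recovered reads put it past the threshold (adjusted p = 0.0403), where that test called 1.49% of genes. Over the 17 alternatives with a value for it the adjusted p ran from 0.0403 to 0.998. In the WT libraries 1 and 2 the value rested on 1 read each. Cplx2 had 15.6, 109 and 67.5 CPM in KO and 229, 102 and 169 CPM in WT, where KO 2 exceeded WT 2, and differed by -1.69 (SE 0.81, limma, adjusted p = 0.761). Snap25 differed by -2.57 (SE 1.35, limma, adjusted p = 0.801), with no read in KO 1. None of the 13 lay below without overlap, against 6.52% of genes. Since hippocampus WT 2 and 3 were alike, they may count for less than separate libraries here. With their mean taken as 1 library the Nrgn difference was 4.04 (limma, adjusted p = 0.998).

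In the cortex 14 members could be tested and 0 passed in limma, against 0.0% of 8376 genes. There was 1 at an unadjusted p under 0.05, where 2.44% of all genes passed. The members leaned lower in KO, 11 against 3, with a median of -0.94 while the median of all genes was 0.49. Both medians include WT 3, which had reads for 3871 genes, against 8244 to 10684 in the other cortex libraries. Its part in these medians was not tested. Astrocyte markers lay higher in KO in 8 of 9 (median 0.65) and oligodendrocyte markers lower in 6 of 9 tested (-0.52), and their part was not tested. Syp carried the largest difference. It had 0, 0.327 and 0 CPM in KO and 59.7, 20.0 and 1359 CPM in WT. No KO library reached the lowest WT library, 1 of 14 members to show this against 2.88% of genes. The log2 difference was -7.06 (SE 2.21, limma, adjusted p = 0.996), edgeR on recovered reads called it (adjusted p = 0.000458, with 0.105% of genes called), and DESeq2 called no member (0.35% of genes). Over its 13 alternatives the adjusted p ran from 0.000458 to 1.00, and without any 1 of the WT libraries Syp no longer met the filter on low values and had no test. Since Syp met the filter only through the WT group, it had to differ. Syt1 had 1.48, 1.14 and 11.5 CPM in KO and 12.8, 10.4 and 120 CPM in WT, where KO 3 exceeded WT 2, and Sv2a had 0, 36.9 and 0 CPM in KO and 3.07, 9.61 and 125 CPM in WT. They differed by -2.98 (SE 2.22) and -2.69 (SE 2.21), both at an adjusted p of 0.996 in limma. None of the 14 lay above without overlap, against 4.73% of genes.

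In the thalamus 16 members could be tested and 0 passed in limma, against 0.0% of 7675 genes. None had an unadjusted p under 0.05, where 3.82% of all genes did, and edgeR (0.0113% of genes called) and DESeq2 (0.709%), which left out KO 3 and WT 1, called 0 members. Members lay higher in KO 9 times and lower 7 times, with a median of 0.41 beside -1.31 for all genes, and the members' median turned to -0.31 under upper-quartile scaling. Both medians include KO 3, which had reads for 2220 genes, against 7509 to 9640 in the other thalamus libraries. Its part in these medians was not tested. Astrocyte markers lay lower in KO in 7 of 9 (median -1.07), oligodendrocyte markers in 6 of 9 tested (-0.87), and 4 of 4 tested endothelial markers lay higher (2.15). Summed, however, the oligodendrocyte markers came to 3110, 29140 and 76162 CPM in KO, with a mean of 36138. In WT their sum was 6862 to 12692 CPM, with a mean of 9448. The part of these markers was not tested. Thy1 had 0.873, 5.10 and 0 CPM in KO and 219, 77.5 and 3.65 CPM in WT, and differed by -4.32 (SE 2.33, limma, adjusted p = 0.859), with KO 2 above WT 3. Camk2b had 3.29, 0 and 0 CPM in KO and 108, 0 and 35.8 CPM in WT (-3.32, SE 2.14, limma, adjusted p = 0.859). WT 2, without a read, overlapped the KO libraries. Syt1 had 32.2, 8.87 and 111 CPM in KO and 0.0927, 0 and 105 CPM in WT, so that 2 WT libraries lay below all KO libraries and the other within them. It differed by 3.28 (SE 2.34, limma, adjusted p = 0.859), and the sign turned to -1.27 in edgeR and -1.26 in DESeq2. Of the 16 members 0 were separated in either direction, against 1.21% of genes above and 9.97% below.

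**Figure D4:**
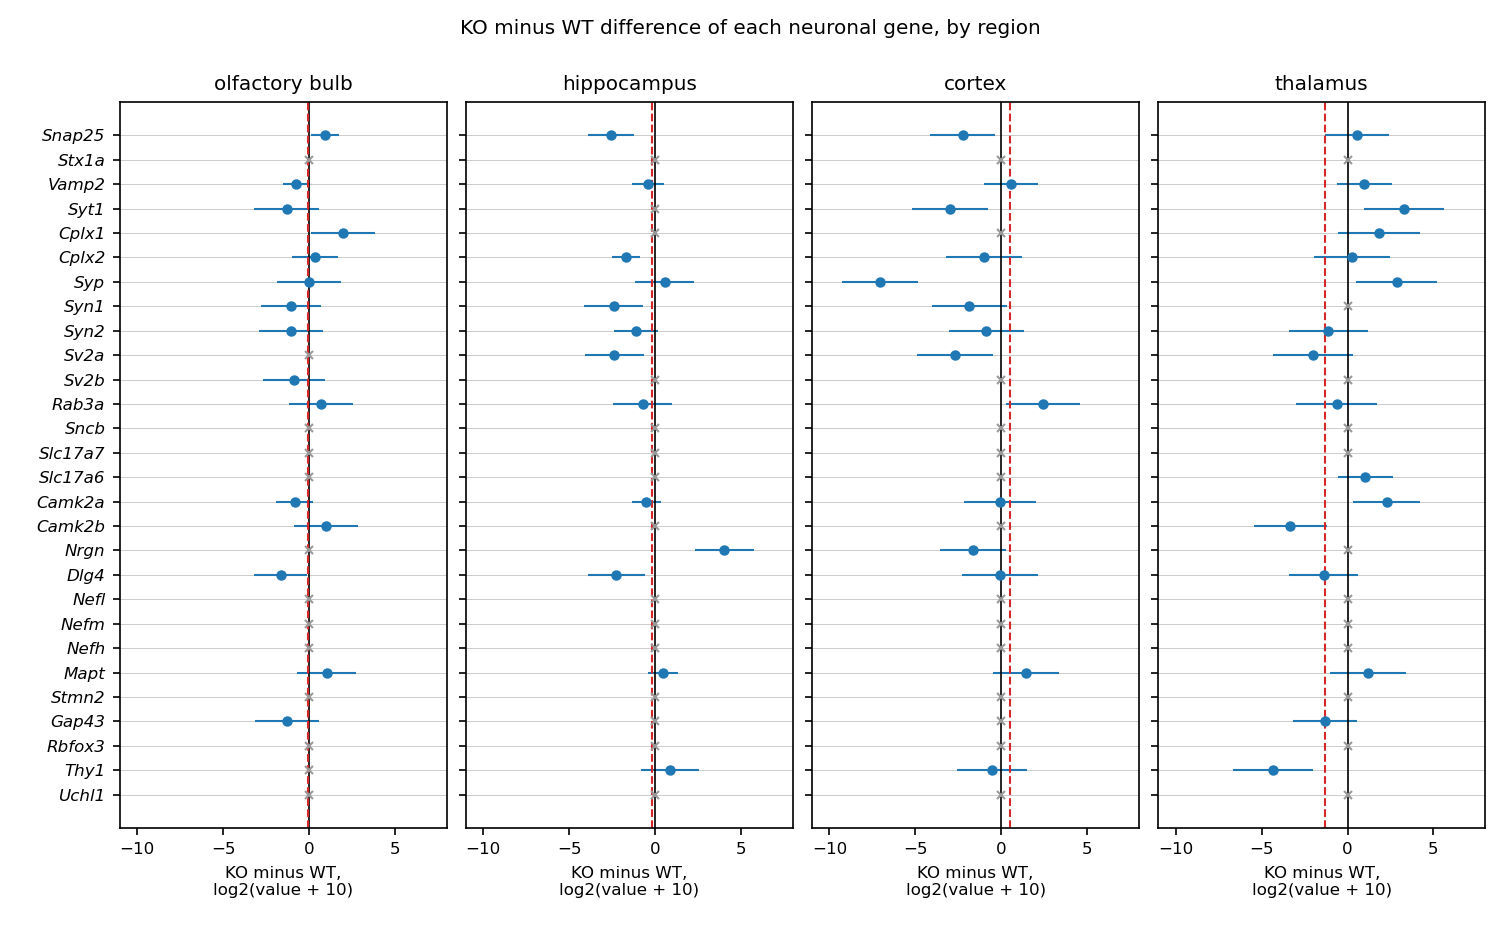
KO minus WT difference of each neuronal gene on the log2(value + 10) scale in each region, with bars of 1 standard error and grey crosses at genes not tested. The red dashed line is the median of all genes tested, at -0.04, -0.16, 0.49 and -1.31 from the left panel to the right, and the largest difference is that of Syp in the cortex (-7.06).

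Averaged over the 4 regions, 23 members could be tested in all 24 libraries and 0 passed in limma, against 0.0% of 12477 genes. At an unadjusted p under 0.05 there were 2, where 4.86% of all genes passed. Lower values in KO prevailed, 16 against 7, with a median of -0.53 beside -0.17 for all genes. Of all genes tested, 40.3% lay higher in KO, so most genes leaned lower as well. Stmn2, a microtubule regulator of axons, had reads in 2 of 12 KO libraries (0.0773 CPM in olfactory bulb KO 2 and 18.7 CPM in hippocampus KO 2) and in 9 of 12 WT libraries. The WT values were 1.36, 0 and 6.06 CPM in the olfactory bulb, 0, 4.96 and 0.700 in the hippocampus, 8.27, 12.9 and 0 in the cortex, and 13.7, 12.4 and 0.0848 in the thalamus. Its average difference was -1.51 (SE 0.67, limma, adjusted p = 0.971). Nefl had reads in 3 of 12 KO libraries, at 2.5 CPM in olfactory bulb KO 3, 0.415 CPM in hippocampus KO 3 and 3.88 CPM in thalamus KO 2. In WT it had reads in 6 of 12, at 15.0 CPM in olfactory bulb WT 2, 0.429 and 9.42 CPM in hippocampus WT 2 and 3, 7.99 and 31.9 CPM in cortex WT 2 and 3, and 213 CPM in thalamus WT 3. It differed by -1.66 (SE 0.77, limma, adjusted p = 0.971). Syn1 had 9.72, 5.03 and 8.71 CPM in KO and 0, 69.9 and 86.5 CPM in WT olfactory bulb, and 0, 2.70 and 18.7 CPM in KO and 37.6, 6.17 and 36.9 CPM in WT hippocampus. In the cortex it had 3.31, 41.4 and 15.7 CPM in KO and 208, 7.80 and 45.8 CPM in WT, and in the thalamus 0 in all KO libraries and 8.25, 0 and 0 CPM in WT. The genotypes overlapped in each region, and the average difference of Syn1 was -1.61 (SE 0.88, limma, adjusted p = 0.971). DESeq2 on recovered reads called 4 members, Nefl, Stmn2, Sv2b and Syp, where it called 8.45% of all genes, and edgeR called 0.

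Detection leaned the same way. Of 336 member values per genotype, 52.1% had reads in KO and 63.4% in WT, or 54.5% in KO and 63.3% in WT of 308 each without cortex WT 3 and thalamus KO 3. More WT than KO libraries held reads for 16 members, and more KO than WT libraries for 5. Over all 12477 tested genes the shares with reads were 67.7% in KO and 73.1% in WT, and 72.3% and 77.0% without those libraries. Fewer detections in KO libraries were thus seen among genes in general too, with a narrower gap than for the members. The member shares cover all members, tested or not, and so are not of like genes. The count of 16 against 5 members was not made over all genes. Hippocampus WT 2 and 3, alike as described above, entered it as separate WT libraries. Of these, WT 2 was the deepest of all libraries, at 25616591 reads, and the part of depth was not tested. The widest gaps were those of Stmn2 above and of Slc17a6 (reads in 2 KO and 7 WT libraries), followed by Uchl1 (1 KO and 5 WT libraries), Sv2b (4 KO and 8 WT) and Gap43 (5 KO and 9 WT). Mapt went the other way in level, with a median of 73.8 CPM in KO and 35.4 CPM in WT, and had reads in all libraries of both.

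Summed over the 28 members, the level was 524 ± 162 CPM in KO and 625 ± 228 CPM in WT olfactory bulb, and 459 ± 140 CPM in KO and 676 ± 298 CPM in WT hippocampus (SD, n = 3 each). It was 591 ± 152 CPM in KO and 1411 ± 1211 CPM in WT cortex, and 1060 ± 614 CPM in KO and 861 ± 262 CPM in WT thalamus (SD, n = 3 each). Each of these differences was smaller than the larger of its SDs. Without cortex WT 3 the log2 ratio of KO over WT in the cortex was -0.27, against -1.26 with it. Without thalamus KO 3 the ratio in the thalamus turned to -0.29, against 0.30 with it, and without olfactory bulb WT 2 that in the olfactory bulb turned to 0.07, against -0.25. Without hippocampus WT 1 it was -0.13 in the hippocampus, against -0.56. The KO against WT difference was also compared between regions with an F test of the interaction over 24 libraries. Of 23 members 0 passed in limma, against 0.0% of 12477 genes, and 2 had an unadjusted p under 0.05, where 4.58% of all genes did. Syp had the smallest p (0.00379, adjusted p = 0.939 in limma) and Nrgn the next, and edgeR (0.00743% of genes called) and DESeq2 (0.0613%) called 0 members.

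Regions were compared over all 24 libraries. With genotype as a second term, an F test over 4 regions called 1 of 23 members in limma, Cplx1 (adjusted p = 0.0430), against 1.43% of 12477 genes. At an unadjusted p under 0.05 there were 6 members, where 10.3% of all genes passed. DESeq2 on recovered reads called Syn1 alone among the members (1.8% of all genes) and edgeR called 0 (1.13% of all genes). Over all 38 alternatives the adjusted p of Cplx1 ran from 0.0142 to 0.778 (limma or edgeR), and the call was lost in 25. Left out one at a time, each library of hippocampus, cortex KO 1 to 3, cortex WT 2 and 3, thalamus KO 1 and 3, thalamus WT 1 and 2 and olfactory bulb WT 3 ended it, at 0.0505 to 0.150. Cplx1 was high in the thalamus. It stood there at 55.0, 1.77 and 319 CPM in KO and 12.1, 49.4 and 2.46 CPM in WT, with reads in 6 of 6 libraries. In the hippocampus a single library had reads, KO 2 at 0.449 CPM, and in the cortex the values were 0.0675, 0 and 0 CPM in KO and 4.14, 1.06 and 0 CPM in WT. The olfactory bulb, at 0 to 65.7 CPM, overlapped both. All 6 hippocampus libraries lay below all thalamus libraries, and among cortex libraries WT 1 alone overlapped them.

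In the thalamus against the mean of cortex and hippocampus, Cplx1 was higher by 4.43 (log2, SE 1.05, limma, adjusted p = 0.0322) and was the 1 member of 23 called, against 0.232% of genes. The call did not hold in 18 of 37 alternatives. Over all 37, held or lost, the adjusted p ran from 0.00610 to 0.149 (limma, edgeR or DESeq2). The call was lost without thalamus KO 3 (3.49, limma, adjusted p = 0.149) and without both libraries with few genes (3.43, limma, adjusted p = 0.111). It was also lost, with adjusted p from 0.0553 to 0.107 in limma, without thalamus KO 1, WT 1 or WT 2, without any cortex KO library, and without hippocampus KO 1, KO 3 or WT 3, and it was at 0.0509 with the alike hippocampus WT pair averaged. The sign held in all 37. Its relative Cplx2 ran the other way, with a median of 105 CPM in the hippocampus (15.6 to 229), 19.6 in the cortex (3.68 to 55.4), and 7.69 in the thalamus (0 to 20.4), a difference of -2.85 for the thalamus (SE 1.02, limma, adjusted p = 0.345) that did not pass. Cplx2 exceeded Cplx1 in CPM in 12 of 12 cortex and hippocampus libraries, and Cplx1 exceeded Cplx2 in 4 of 6 thalamus libraries. Forebrain principal neurons are known for complexin 2 and many subcortical neurons for complexin 1.

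The vesicular glutamate transporters were found in few libraries, and neither passed a test between regions. Slc17a7 (chr7:45163949-45176142, plus strand), typical of cortical and hippocampal principal neurons, was at 0 in 6 of 6 thalamus libraries, where the floor was 0.201 to 1.19 CPM. In the cortex it had 0, 0 and 7.44 CPM in KO and 0, 0 and 183 CPM in WT, and in the hippocampus 0, 0 and 37.4 CPM in KO and 0 in all WT libraries. Its reads in cortex and hippocampus thus came from 3 libraries of 12. In the olfactory bulb it had 0, 0.155 and 0 CPM in KO and 0, 1.39 and 1.35 CPM in WT. Slc17a6 (chr7:51622006-51671119, plus strand), typical of thalamic relay neurons, was at 0 in 6 of 6 cortex libraries, where the floor was 0.177 to 0.625 CPM. In the thalamus it had 0, 64.3 and 0 CPM in KO and 2.22, 0 and 1.61 CPM in WT. In the hippocampus it had 0 in all KO libraries and 10.4, 0.507 and 0.318 CPM in WT, and in the olfactory bulb 0, 0 and 0.806 CPM in KO and 0, 3.06 and 0.561 CPM in WT. Given these zeros, no library of cortex or thalamus could hold both transporters, while olfactory bulb WT 2 and WT 3 held both. In the thalamus against cortex and hippocampus, Slc17a6 differed by 1.18 (SE 0.69) and Slc17a7 by -1.41 (SE 0.80), both at an adjusted p of 0.621 in limma.

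**Figure D5:**
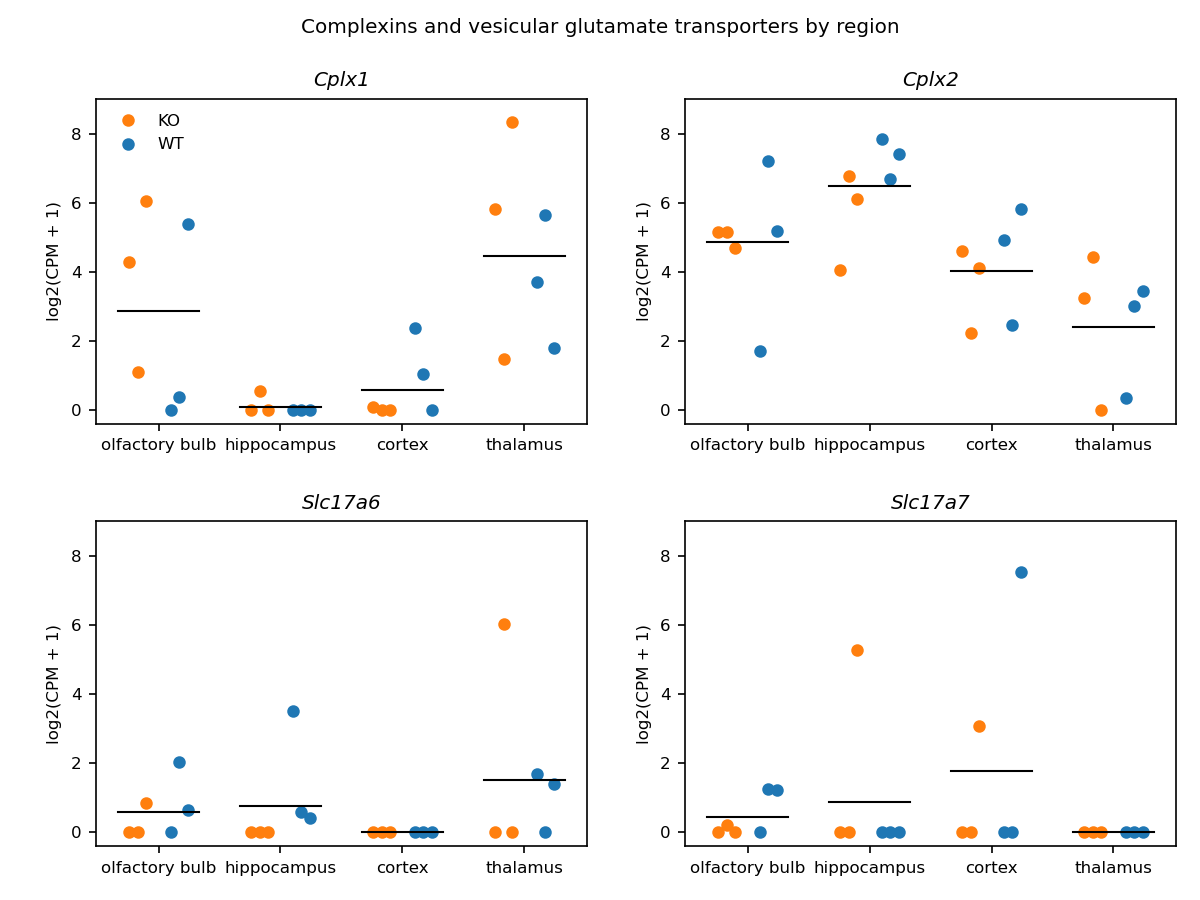
log2(CPM + 1) of the complexin genes Cplx1 and Cplx2 and of the vesicular glutamate transporter genes Slc17a6 and Slc17a7 in each KO (left) and WT (right) library of the 4 regions, with lines at region means. Cplx1 has reads in 6 of 6 thalamus libraries and 1 of 6 hippocampus libraries, Slc17a6 is at 0 in all cortex libraries, and Slc17a7 is at 0 in all thalamus libraries.

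Other members with a regional lean did not pass. Camk2a had reads in 3 of 6 thalamus libraries, at 23.6, 27.3 and 0 CPM in KO and 5.93, 0 and 0 CPM in WT, below most of the forebrain values given above (-3.86, SE 1.08, limma, adjusted p = 0.126). Syn1 had reads in 1 of 6 thalamus libraries (8.25 CPM in WT 1), against 11 of 12 in cortex and hippocampus (-3.50, SE 1.07, limma, adjusted p = 0.196). Nrgn was at 0 in 6 of 6 thalamus and 6 of 6 olfactory bulb libraries. It had reads in 6 of 6 hippocampus and 4 of 6 cortex libraries (-2.31 for the thalamus, SE 0.85, limma, adjusted p = 0.365). Since Nrgn met the filter on low values only through hippocampus and cortex, it could only lie lower in the thalamus, in every test. In all, 17 members lay higher and 6 lower in the thalamus, with a median of 0.53 beside -0.37 for all genes, and 5 had an unadjusted p under 0.05, where 8.95% of all genes did. DESeq2 on recovered reads, which left out thalamus KO 3 and WT 1, called Cplx1, Nrgn, Sv2b and Syn1 where it called 6.86% of genes, and edgeR called 0 members and 0.319% of genes (Cplx1 adjusted p = 0.0967).

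In the olfactory bulb against the other regions 0 of 23 members passed in limma, against 1.69% of 12477 genes, with 11 higher and 12 lower and a median of -0.14 beside 0.34 for all genes. The members' median turned to 0.16 on the CPM scale and to 0.47 under upper-quartile scaling. There were 3 with an unadjusted p under 0.05, where 9.01% of all genes passed. Mapt had the smallest p, at 1.29 to 92.9 CPM in the olfactory bulb with a median of 15.4, and medians of 68.2 to 71.5 CPM in the other regions (-2.52, SE 0.90, limma, adjusted p = 0.197). Thy1 was lower by the same measure (-2.35, SE 1.05, adjusted p = 0.425 in limma) and Sv2b higher (2.11, SE 0.99, adjusted p = 0.485 in limma). DESeq2 called Nrgn, Syn1 and Thy1, where it called 5.7% of genes, and edgeR called 0 members and 1.66% of genes. Nrgn had no reads in the bulb and met the filter only through hippocampus and cortex, so it could only lie lower there. The bulb is rich in inhibitory neurons. Of 9 listed markers of such cells 6 were tested, with 5 higher and 1 lower there. Npy (6.70, SE 0.98, limma, adjusted p = 1.30e-06) and Gad2 (3.43, SE 0.96, limma, adjusted p = 0.0394) were called higher. Gad2 was not confined to the bulb, with at most 98.5 CPM there and 108 CPM in thalamus KO 2. Slc32a1, of the same list, reached 1.01 CPM in the bulb and 5.83 CPM in the cortex. Th and Calb2 were called too, but they met the filter on low values only through the olfactory bulb and so had to differ. Of 6 tested neuroblast markers 4 lay higher and 2 lower, with 1 called, Sp8 (4.76, SE 0.79, limma, adjusted p = 2.33e-05).

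Wider lists of neuronal genes gave the members a context. They were 44 further genes of the release machinery, 30 further postsynaptic genes and 40 further genes of the neuronal cytoskeleton and identity, of which 39 were in the table. They summed to 1306 to 2725 CPM, 869 to 4702 CPM and 3995 to 7764 CPM in the 22 libraries, where the 28 members summed to 319 to 1162 CPM. Gria1 of the postsynaptic list alone stood at 800 to 2103 CPM in the olfactory bulb. Which cells gave the RNA of these lists was not tested, so their sums cannot be read as neuronal RNA alone. In KO against WT averaged over regions, 0 of 36, 0 of 27 and 0 of 38 tested genes of these lists passed in limma, with medians of -0.34, -0.35 and -0.50, and 6, 1 and 6 had an unadjusted p under 0.05, where 4.86% of all genes did. The genes with the smallest p were Napb (-2.68, SE 0.86) and Rims2 (2.18, SE 0.81) of the release machinery, Nlgn2 (-1.82, SE 0.90) and Grin2b (-1.37, SE 0.71) of the postsynapse, and Cntnap1 (-2.56, SE 0.78) and Stmn4 (-2.999, SE 0.94) of the cytoskeleton list, all at an adjusted p of 0.971 in limma. Between regions, Cadps (3.83, SE 1.00, adjusted p = 0.0214), Gria3 (5.98, SE 0.98, adjusted p = 1.80e-05), Gria1 (4.37, SE 0.92, adjusted p = 0.00139) and Dpysl3 (3.80, SE 1.02, adjusted p = 0.0277) were called higher in the olfactory bulb in limma, 1 of 36, 2 of 27 and 1 of 38 tested genes of the lists against 1.69% of all genes, and 0 genes of these lists were called in the thalamus contrast.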

How the data were processed

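Bulk RNA-seq was deposited as 1 table of normalized values for 24 libraries. The submitters' processing notes name STAR 2.5.0a, DESeq2 1.20.0, R 3.5.2, FastQC 0.10.1, MultiQC 0.9 and mm10. Per the labels, RNA of sorted cells was made into libraries from 10 ng; the counting tool, strand setting and molecular identifiers are not given in the sources used here. The deposited values are a signal, the authors' read count per gene divided by 1 size factor per library. In all 24 columns the values were whole multiples of a single step (tolerance 0.001), which gave back reads. Thalamus WT 1 and KO 3 (steps of 0.993 and 9.90) were not among the 22 columns marked as recovered in a separate check. They were left out of edgeR and DESeq2 for that reason. Of 24421 entries, 27 named as dates (at most 0.255% of reads) were dropped. CPM used the total over the remaining genes, RPKM the merged exon length of GENCODE M21 (GRCm38).

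Tests used limma 3.58.1 (trend, robust) on log2(value + 10), two-sided, over genes that reached a value of 10 in 3 or more libraries, Benjamini-Hochberg adjusted, called under 0.05. KO against WT in a region used its 6 libraries. Averages, the interaction and regional contrasts used all 24. Alternatives were other pseudocounts (1, 100), filters (none, 50), scalings, array weights, a replicate block, each library left out, edgeR 4.0.16 and DESeq2 1.42.0 (R 4.3.3, Python 3.11.15). The scripts were tested on simulated data. The members and lists were chosen with earlier results of these data known. All members are described, with values per library for those called by limma, the 3 of smallest p in each KO against WT comparison, the 5 of highest mean CPM and both glutamate transporters; others with such values were added after their values were seen.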

Additional observations from a re-analysis of the deposited data

How the results depend on the processing

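For KO against WT, 0 of 17 olfactory bulb and 0 of 18 thalamus alternatives called a member, and 1 alternative each did in the hippocampus, cortex and average. Between regions, 14 of 39 alternatives called 1 to 4 members in the F test, 19 of 37 did in the thalamus contrast, also with up to 4, and 3 of 37, with up to 3, in the olfactory bulb contrast. Counts over all genes moved more. For KO against WT in the hippocampus (1 gene called) the count was 0 with a pseudocount of 1, no filter, a filter at 50 or edgeR, 2 with upper-quartile factors, 3 with a pseudocount of 100, 23 with array weights and 133 in DESeq2. DESeq2 called 63 genes in the olfactory bulb, 27 in the cortex, 47 in the thalamus and 966 on average, and edgeR 9 in the cortex and 1 in the thalamus, where limma called 0. For the interaction (0) the count was 9 without a filter, 24 with array weights, 1 without the libraries with few detected genes, 1 in edgeR and 7 in DESeq2. For region (178) it was 667 with array weights, 367 without those libraries, 28 in WT alone and 6 in KO alone. For the thalamus contrast (29) it was 18 with a pseudocount of 100, 18 with the hippocampus WT pair averaged, 85 with array weights, 134 without the few-gene libraries and 738 in DESeq2. For the olfactory bulb contrast (211) it was 378 with array weights and 614 in DESeq2.

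Leaving out 1 library at a time gave 1 to 7 genes in the hippocampus, 0 to 2 in the olfactory bulb, 0 to 1 in the thalamus, 0 to 0 in the cortex, average and interaction, 130 to 232 for region, 17 to 76 for the thalamus contrast and 143 to 216 for the olfactory bulb contrast. The log2 ratio of the summed members ran from -0.48 to 0.07 in the olfactory bulb, -0.79 to -0.13 in the hippocampus, -1.60 to -0.27 in the cortex and -0.29 to 0.58 in the thalamus. It was -0.27 in the cortex without the few-gene library and 1.09 in the thalamus on values as deposited. Syt1 in the thalamus reversed to -1.27 in edgeR and -1.26 in DESeq2, which used fewer libraries. For the rest the cause was not tested.

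Over all tested genes, deviations of same-numbered KO and WT libraries from their group means had r from -0.07 to 0.07 over 12 pairs. Those of different regions in 1 genotype had -0.05 to 0.11 over 36 pairs, against -0.09 to 0.09 over 72 pairs with unlike numbers. The numbers were therefore not taken as pairs. The highest r was that of hippocampus KO 2 and cortex KO 2. KO 2 also had the most endothelial marker RNA among KO libraries of each region (56.5, 555, 550 and 475 CPM from olfactory bulb to thalamus). Whether equal numbers share material was not tested. The labels do not say whether regions share animals, and the tests over 24 libraries treat them as separate. With the replicate number as a block 3 genes were called in the hippocampus, 197 for region, 31 for the thalamus contrast and 227 for the olfactory bulb contrast, and 0 in the other comparisons. Depth limits members near the floor of 0.117 to 1.19 CPM, where 0 reads does not show absence.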
